A study of Mus musculus with 4 samples.

Results

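The EGF receptor (ErbB) family and its ligands were followed through the cell classes of mouse mammary tumours, as 10 genes out of the 55472 entries of the gene table. The receptor genes were Egfr, Erbb2, Erbb3 and Erbb4. The ligand genes were Areg (amphiregulin), Ereg (epiregulin), Hbegf (heparin-binding EGF-like growth factor), Tgfa (transforming growth factor alpha), Btc (betacellulin) and Nrg1 (neuregulin 1). They were chosen by symbol, as members of 1 signalling family, and each symbol matched 1 row.

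Single-cell RNA-seq had been run on 4 tumour samples from 3 female mice aged 13 to 14 weeks, on the FVB background. All the mice carried MMTV-PyMT, in which a mammary-active viral promoter drives a viral oncogene, together with K14Cre, driven by a keratin promoter, and the Cre-dependent reporter Rosa-tdTomato. Tumour 1 came from multiple mammary glands of mouse 1, tumour 2 from an inguinal gland of mouse 2. Mouse 3 gave both tumour 3, of a thoracic gland, and tumour 4, of an inguinal one. The labels name no treatment and every sample was a tumour, so the comparisons are between cell classes and cell states within these tumours, which the study profiled to describe their heterogeneity.

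ErbB receptors are tyrosine kinases that signal as pairs. EGFR binds amphiregulin, TGF-alpha, epiregulin, HB-EGF and betacellulin, ERBB3 and ERBB4 bind neuregulins, and ERBB4 also binds HB-EGF, betacellulin and epiregulin. ERBB2 has no known ligand of its own and ERBB3 has little kinase activity, so these receptors work mainly as partners. Most ligands are made as membrane-bound precursors that metalloproteases such as ADAM17 and ADAM10 release. In the mammary gland, amphiregulin from hormone-sensing epithelium is known to act on stromal EGFR during duct growth, and ERBB4 is known for its part in milk production.

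Each cell was placed in a class by the UMIs (unique molecular identifiers, each counting 1 captured transcript) of a pair of marker genes. The classes held 20581 luminal, 938 basal, 1512 fibroblast, 625 endothelial, 3005 macrophage and 355 T cells of the 36138 cells kept. No gate was passed by 8959 cells, from 7.36% of the cells of tumour 2 to 44.0% of tumour 1, and 163 cells passed more than 1 non-luminal gate and were left out. The libraries held 20281799 to 39370565 UMIs, and 623 barcode sequences occurred in more than 1 library. Every marker gene of the fixed list of its own type was detected in each class of each tumour. The basal class of tumour 2 stood apart. Of its cells, 89.1% also passed the luminal gate, against 30.2 to 68.3% in the other tumours, and the median was 6183 UMIs per cell, against 1739.5 to 3131. Its myoepithelial marker Acta2 stood at 37.9 CPM (UMIs per 1000000 UMIs of the class), against 174 to 444 CPM in the basal classes of the other tumours. In the T class of tumour 4, Acta2 stood at 267 CPM, against 5.43 to 50.6 CPM in the T classes of tumours 1 to 3. The 4 neutrophil markers summed to 1499 CPM in the endothelial class of tumour 4, with Csf3r at 0, against 18.3 to 201 CPM in the other tumours. In fibroblasts of tumour 3 they summed to 226 CPM, against 8.33 to 25.0 CPM, and the 4 B cell markers to 162 CPM, all from Cd79b, against 0 to 20.6 CPM.

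RNA of luminal marker genes was found in every other class, which bears on any gene that luminal cells carry. The median level of 5 luminal genes not used for gating (Krt19, Epcam, Cldn3, Cldn7 and Elf5), as a percent of the luminal level in the same tumour, was 14.3 to 23.1% in fibroblasts and 20.7 to 33.3% in macrophages. It was 28.2 to 46.6% in endothelial cells, 40.1 to 58.5% in T cells and 59.2 to 129% in basal cells. Whether this RNA came from luminal cells or was made in the class itself was not tested. These medians, the luminal reference, are set beside the members' own levels throughout. The single genes lay on either side of them, from 18.8 to 38.7% in macrophages, so a level just above the reference can lie within their spread.

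Egfr (GRCm38 chromosome 11, 16752203 to 16918158, plus strand) was the receptor of the fibroblasts. Its fibroblast level was 61.9, 51.0, 38.9 and 42.5 CPM in tumours 1 to 4. In luminal cells it was 10.2, 24.9, 8.86 and 14.8 CPM. The lowest fibroblast value lay above the highest luminal value, so the groups did not overlap, and tumour 2 had the highest luminal level. Fibroblasts carried 205 to 605% of the luminal Egfr level of their tumour, against a luminal reference of at most 23.1%. The log2 fold change was 1.73 with a standard error of 0.26 (adjusted p = 5.82e-06, higher in 3 of 3 mice). This call held in every alternative tried, with adjusted p from 8.47e-12 to 0.00228.

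Basal cells held the next level of Egfr, at 33.4, 27.6, 25.5 and 17.6 CPM, which overlapped the luminal range. Egfr was higher in basal than in luminal cells by a log2 value of 0.69 with a standard error of 0.30, in 3 of 3 mice, and did not pass (adjusted p = 0.200). It passed without mouse 2 (0.98, adjusted p = 0.0201) and without the 8% of cells with most UMIs (1.07, adjusted p = 0.0357). It also passed with basal cells that also passed the luminal gate left out (1.36, adjusted p = 0.0191). That run too lacked the basal sum of mouse 2, which had 14 cells and was not used. In macrophages Egfr stood at 2.47, 12.3, 3.30 and 3.93 CPM, from 40 UMIs in all. It was lower there than in luminal cells (log2 fold change -1.17, adjusted p = 0.00627, 3 of 3 mice). Without mouse 3 this call was lost (adjusted p = 0.104). The macrophage values were 24.2 to 49.5% of the luminal level, beside a luminal reference of 20.7 to 33.3%. An Egfr UMI was found in 11.2 to 15.3% of fibroblasts and 0.407 to 3.95% of macrophages, a class not known for Egfr, at median depths of 1812 to 3469.5 and 1344 to 2560 UMIs per cell. With every cell thinned to 1000 UMIs the shares were 3.68 to 4.59% and 0.336 to 0.988%.

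Erbb3 (chromosome 10, 128567523 to 128589652, minus strand), the kinase-poor partner that binds neuregulins, was the steadiest receptor of the luminal class. Its luminal level was 21.2, 23.9, 24.4 and 20.6 CPM, a mean of 22.5 ± 1.35 (SD, n = 3 mice). In fibroblasts it was 2.29, 9.64, 1.92 and 3.79 CPM, from 17 UMIs in all, 1 of them in tumour 1. The ranges did not overlap, and tumour 2 had the highest fibroblast value. Erbb3 was lower in fibroblasts by a log2 fold change of -2.49 with a standard error of 0.43 (adjusted p = 3.88e-05, 3 of 3 mice), which held in every alternative. It was in the fit through the classes where it is higher, so the size of this fold is uncertain. Fibroblasts carried 7.87 to 40.4% of the luminal Erbb3 level, above the luminal reference in 1 of 4 tumours. In macrophages it was 4.12, 10.5, 6.24 and 6.39 CPM from 52 UMIs, also clear of the luminal range and called in every alternative (log2 fold change -1.43, adjusted p = 0.000715). Endothelial cells had 7.94, 2.62, 4.47 and 19.4 CPM, from 16 UMIs in all. Basal cells ranged from 0 in tumour 1, where 3 UMIs would be 14.3 CPM, to 33.3 CPM in tumour 2, on either side of the luminal level.

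Erbb2 (chromosome 11, 98412470 to 98437716, plus strand), the ligandless partner, lay in both epithelial classes. Its exons overlap those of Mien1 on the other strand, and strand use in the counting is not given in the sources used here, so its counts are uncertain. Luminal cells had 11.2, 18.5, 10.9 and 12.9 CPM and basal cells 28.6, 18.4, 7.18 and 13.2 CPM. The basal values lay on both sides of the luminal ones, and the log2 difference of -0.05 did not pass (adjusted p = 0.980). Macrophages had 3.30, 8.63, 1.10 and 4.42 CPM from 30 UMIs, below every luminal value (log2 fold change -1.45, adjusted p = 0.00115, lower in 3 of 3 mice). This call was lost without mouse 3 (adjusted p = 0.0621). Fibroblasts had 2.29 to 12.1 CPM, and the difference from luminal cells did not pass (-0.77, adjusted p = 0.0700). They carried 20.4, 22.4, 70.2 and 94.1% of the luminal level in tumours 1 to 4, the first 2 values from 1 and 3 UMIs. Erbb2 passed without mouse 3 (-2.17, adjusted p = 0.0125), without the count filter (-0.97, adjusted p = 0.00906), with cells of several gates assigned to the first (-0.90, adjusted p = 0.0331) and without the fibroblasts that also passed the luminal gate (-1.35, adjusted p = 0.00730).

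Erbb4 (chromosome 1, 68032186 to 69108059, minus strand), the receptor tied to milk production, was scarce. Its luminal level was 0.905, 2.10, 1.43 and 1.42 CPM from 134 UMIs, while basal cells held 4, fibroblasts 2 and macrophages 1. No UMI was found in endothelial or T cells, where 3 UMIs in a tumour would be 4.47 to 23.8 CPM and 9.50 to 18.4 CPM. At this depth a level like that of luminal cells could not have been detected there. Erbb4 passed the count filter only in the stress comparison described below.

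**Figure D1:**
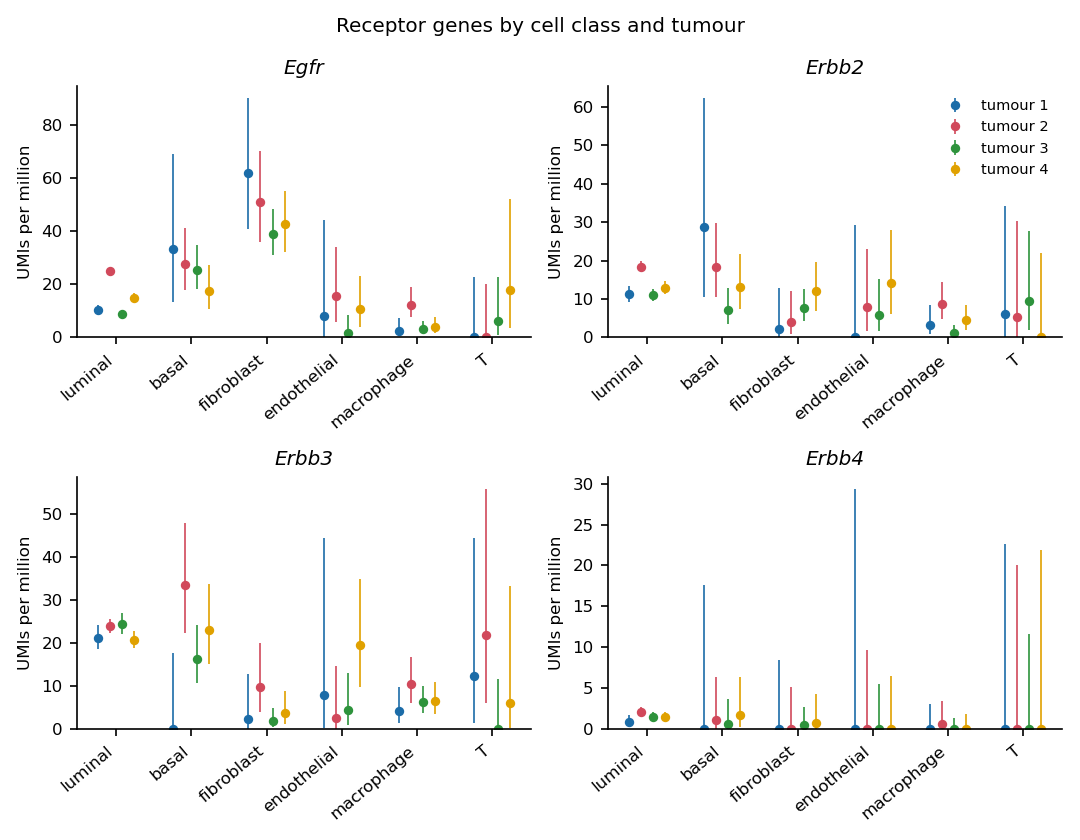
Level of the 4 receptor genes (vertical axis, CPM) in 6 cell classes (horizontal axis). Each point is 1 tumour, the bars are exact Poisson 95% intervals that cover counting error only, and the Egfr points of fibroblasts, at 38.9 to 61.9 CPM, lie above all luminal points.

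Hbegf, the precursor of a membrane-anchored EGFR and ERBB4 ligand, was found in every class. Its mean over mice was highest in the endothelium, at 105 ± 33.0 CPM (SD, n = 3 mice), a range that overlapped that of basal cells, and in tumour 2 basal cells and fibroblasts stood higher. Endothelial cells had 143, 88.9, 84.9 and 81.2 CPM, from 155 UMIs in all. Luminal cells had 52.9, 53.3, 35.3 and 48.9 CPM. The endothelial values lay above all the luminal ones, at 166 to 270% of the luminal level of the same tumour against a luminal reference of at most 46.6%. The log2 fold change was 0.83 with a standard error of 0.31 (adjusted p = 0.0455, 3 of 3 mice). The call was lost in DESeq2 (adjusted p = 0.116), without mouse 1 (0.165), without mouse 3 (0.216), with 4 tumour sums (0.0505), with cells of several gates assigned to the first (0.0660) and without the mouse term (0.198). With endothelial cells that also passed the luminal gate left out, the mean over tumours was 113 CPM, and 99.5 CPM with them.

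In the other classes Hbegf varied more between tumours. Basal cells had 38.2, 109, 48.3 and 65.2 CPM and fibroblasts 29.8, 90.9, 12 and 34.9 CPM. In both classes tumour 2 was highest, and neither class passed against luminal cells (0.49, adjusted p = 0.403, and -0.26, adjusted p = 0.508). Without mouse 2 fibroblast Hbegf was lower and passed (-1.07, adjusted p = 0.000134), and without mouse 3 it was at 0.22 (adjusted p = 0.663). Macrophages had 18.1, 20.3, 12.1 and 24.1 CPM, below every luminal value (log2 fold change -1.12, adjusted p = 0.00380, lower in 3 of 3 mice). They carried 34.3 to 49.2% of the luminal level, above the luminal reference in 4 of 4 tumours. In tumour 2 their 38.2% lay within the 29.5 to 38.7% of the 5 single reference genes. Without the macrophages that also passed the luminal gate the mean over tumours went from 18.7 to 10.6 CPM. Leaving out mouse 1 ended the macrophage call (adjusted p = 0.0555).

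Nrg1 (chromosome 8, 31814551 to 32884029, minus strand), a ligand of ERBB3 and ERBB4, had its widest spread within the luminal class. Luminal cells had 6.24, 50.0, 2.62 and 5.89 CPM. The luminal cells of tumour 2 thus stood far above the others, with 1692 of the 1925 luminal UMIs. Nrg1 was found there in 14.9% of the cells, 4.28% after thinning, against 1.06 to 2.02% and 0.465 to 0.730% in the other tumours. Of the luminal cells of tumour 2, 832 held 1 Nrg1 UMI and 340 held 2 or more, with up to 13 in a cell. In tumours 1, 3 and 4 only 5, 3 and 11 luminal cells held 2 or more. An exon of Gm26578 on the other strand overlaps Nrg1, so reads of the pair may not be told apart.

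Marker lists of cell types that may carry Nrg1 were measured in the same luminal cells. The 7 fibroblast markers summed to 32.8, 18.8, 87.5 and 56.8 CPM and the 8 basal markers to 36.7, 35.7, 62.4 and 57.2 CPM in the luminal classes of tumours 1 to 4, lowest in tumour 2 in both lists. The part of such cells in the Nrg1 level was not tested. Median depth was 3500.5 UMIs per luminal cell in tumour 2, within the 2659 to 3671.5 of the others.

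Fibroblasts had 22.9, 41.3, 8.64 and 30.4 CPM of Nrg1, which was above the luminal level of the same tumour in tumours 1, 3 and 4 and below it in tumour 2. With mouse as a block the log2 fold change was 1.01 with a standard error of 0.35 (adjusted p = 0.0184, higher in 2 of 3 mice). It was 1.84 without mouse 2 (adjusted p = 1.00e-05) and did not pass without mouse 1 (0.87, adjusted p = 0.106), without mouse 3 (0.30, adjusted p = 0.601), in DESeq2 (adjusted p = 0.0677) or without the mouse term (0.38, adjusted p = 0.746). Fibroblast Nrg1 was 82.6 to 515% of the luminal level, above the luminal reference in 4 of 4 tumours. In macrophages it was 0.825, 15.4, 1.10 and 3.93 CPM, highest in tumour 2 as in luminal cells. The 15.4 CPM of tumour 2 were 30.8% of the luminal level there, beside a luminal reference of 33.3%. Endothelial cells held 4 Nrg1 UMIs in all, none in mice 1 and 2.

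Areg (chromosome 5, 91139599 to 91148432, plus strand) stood at 8.96, 0.917, 1.07 and 1.37 CPM in luminal cells. Tumour 1 was the high one, and there 23 cells held 1 Areg UMI and 11 cells 2 or more, with up to 21 in 1 cell. Basal cells had 4.77, 3.45, 4.57 and 9.69 CPM from 22 UMIs, which in tumours 2 to 4 was above the luminal level of the same tumour. Macrophages of tumour 1 had 8.25 CPM from 10 UMIs, against at most 0.734 CPM in the other tumours. Endothelial cells held none. Areg did not reach the count filter of the class comparison, so these levels carry no test.

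Btc (chromosome 5, 91357261 to 91402994, minus strand) was the steadiest ligand of luminal cells, at 7.15, 7.39, 7.79 and 8.49 CPM, a mean of 7.57 ± 0.536 (SD, n = 3 mice). In each other class its mean over mice was lower, at 4.57 ± 5.27 CPM in basal cells and 0.688 to 3.04 CPM elsewhere. Only 18 UMIs in basal cells and 24 in macrophages stand behind those values. Macrophages that did not pass the luminal gate had a mean over tumours of 0.674 CPM, against 3.15 CPM for all macrophages.

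Tgfa was low in luminal cells, at 0.995, 2.84, 2.62 and 2.06 CPM, and basal cells had up to 4.57 CPM from 15 UMIs. The endothelial class held 5 Tgfa UMIs. Its exons overlap Gm43917 on the other strand. Ereg, whose exons overlap Gm19610 on the other strand, gave 10 UMIs in all 36138 cells. Of these, 8 lay in fibroblasts, 7 in tumour 3 and 1 in tumour 2, each in a different cell, and the other 2 in cells of no class. No Ereg UMI lay in luminal cells, where 3 UMIs would be 0.0887 to 0.271 CPM.

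**Figure D2:**
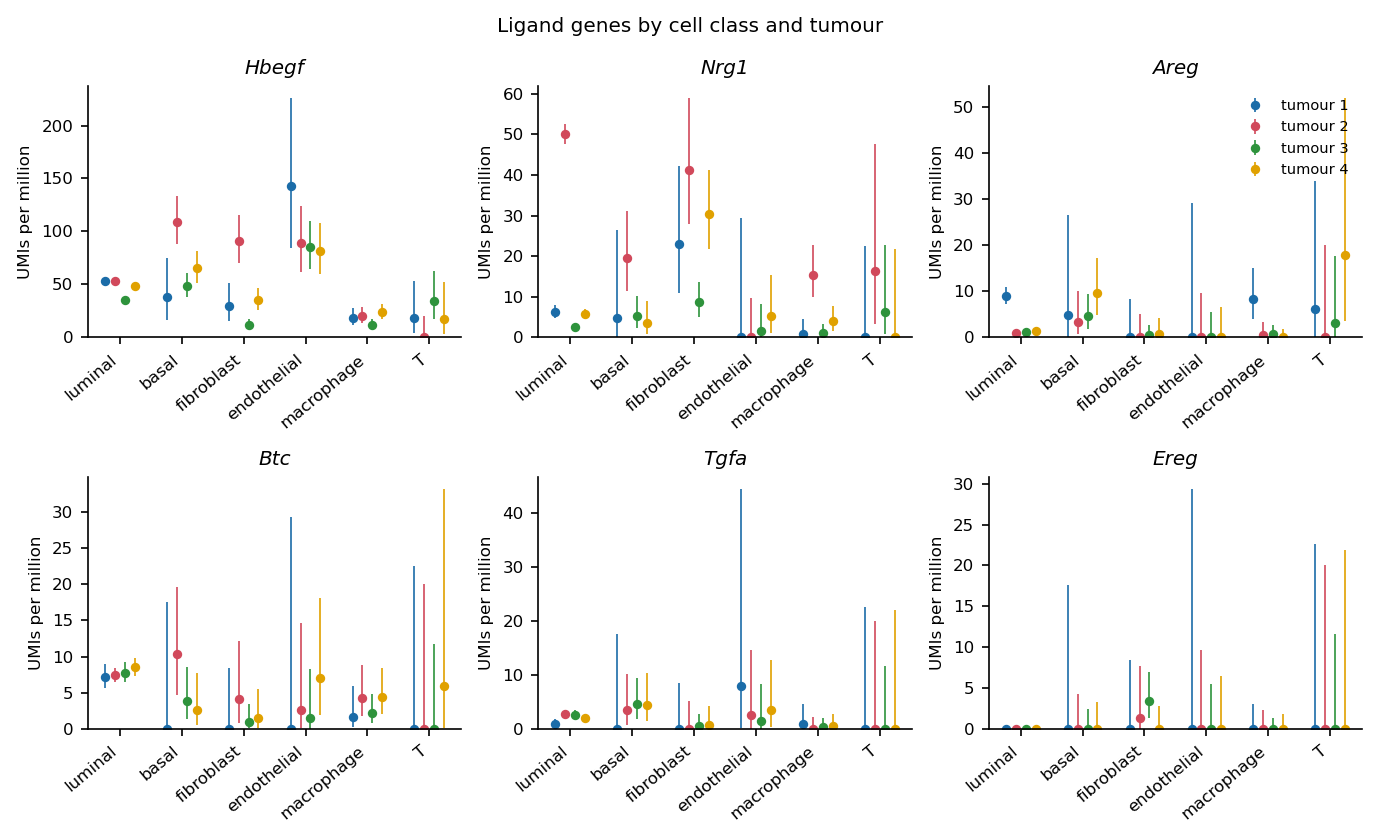
Level of the 6 ligand genes (vertical axis, CPM) in 6 cell classes (horizontal axis), with a point for each tumour and exact Poisson 95% intervals for counting error. Luminal Nrg1 is high in tumour 2 alone, at 50.0 CPM, and luminal Areg in tumour 1, at 8.96 CPM, while luminal Btc stays between 7.15 and 8.49 CPM.

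Areg and Btc are neighbours on chromosome 5, in the order Epgn, Ereg, Areg and Btc, with gaps of 39.4, 46.0 and 209 kb. Their luminal levels nevertheless varied very differently between tumours. The high Areg level of tumour 1 lay in few cells, as 9 of its luminal cells held 72 of the 99 Areg UMIs. The 250 bases before the start of each gene are shown because of this contrast. They come from RefSeq (GRCm38.p6), where 6 of the 10 members matched, and are written on the gene's own strand. Capitals mark motif matches, on either strand. The Areg stretch is chr5:91139349-91139598 (plus strand) and the Btc stretch chr5:91402995-91403244 (minus strand).
Areg: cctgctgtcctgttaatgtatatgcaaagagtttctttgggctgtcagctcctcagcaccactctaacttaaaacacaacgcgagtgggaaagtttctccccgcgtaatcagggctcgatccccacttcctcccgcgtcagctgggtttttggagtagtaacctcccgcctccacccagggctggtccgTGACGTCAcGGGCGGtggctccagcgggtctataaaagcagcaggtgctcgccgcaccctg
Btc: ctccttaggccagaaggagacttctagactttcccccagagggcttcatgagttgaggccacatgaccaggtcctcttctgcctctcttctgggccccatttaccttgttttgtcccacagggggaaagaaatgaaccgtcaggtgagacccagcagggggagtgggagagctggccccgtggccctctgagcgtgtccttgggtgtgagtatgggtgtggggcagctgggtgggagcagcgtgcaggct

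The motifs searched were the cyclic AMP response element TGACGTCA, the GC box GGGCGG, the AP-1 site TGANTCA and the STAT site TTCNNNGAA, on both strands, in windows of 300 bases that also take in the first 50 bases of the gene. Areg held 1 cyclic AMP response element, a motif found in 1.79% of 32851 promoters, with a GC box (35.7%) 1 base after it and another GC box after the gene's start. Btc held no match to any of these motifs. AP-1 sites were in 7.81% and STAT sites in 8.30% of the promoters and in none of the 6 members. The GC content was alike, at 59.3% for Areg and 60.3% for Btc (median of all promoters 52.7%), and Areg held 21 CpG and Btc 5. A match describes the letters only.

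Each class was then compared with luminal cells over the sums per mouse, to ask which members a class carried at a higher or lower level. Only Egfr, Erbb2, Erbb3, Hbegf and Nrg1 passed the count filter, so 5 members could be tested among 10315 genes, and Erbb4, Areg, Ereg, Tgfa and Btc could not. In fibroblasts 2 were higher (Egfr and Nrg1) and 1 lower (Erbb3), where 49.1% of all genes were called, 26.6% higher and 22.4% lower. In macrophages all 5 were lower, in each of 3 mice, where 43.7% of all genes were called, 23.3% higher and 20.4% lower. Egfr, Erbb2, Erbb3 and Nrg1 rest on 40, 30, 52 and 37 macrophage UMIs. They were in the fit through the classes where they are higher, so the count of 5 is no result about the family. In endothelial cells Hbegf was higher and Erbb3 and Nrg1 were lower, where 33.0% of all genes were called, 17.9% higher and 15.1% lower. Endothelial Erbb3 was at -1.44 (adjusted p = 0.0191), from 16 UMIs, with 1 each in tumours 1 and 2. It was in the fit through the classes where it is higher, so the size of this fold is uncertain. Endothelial Nrg1 rests on 4 UMIs, with 0 in mice 1 and 2, and it was in the fit through the classes where it is higher, so its call gives no measure of the endothelial level and no fold is given.

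No tested member was called in basal cells in edgeR, where 7.24% of all genes were called, 4.78% higher and 2.46% lower. None was called in T cells either, where 16.6% of all genes were, 9.68% higher and 6.92% lower. At an unadjusted p under 0.05 there was 1 in basal cells, Egfr, and 2 in T cells, Erbb3 and Hbegf, while DESeq2 gave 0 and 1 unadjusted and 0 adjusted in both. The T class held 17 Hbegf UMIs and 5 to 7 of the other tested members, so its log2 values, from -1.33 for Erbb3 to -1.09 for Erbb2, have standard errors of 0.54 to 0.85. Without mouse 2 Erbb3 passed as lower in T cells. The T classes of tumours 1, 3 and 4 held 2, 0 and 1 Erbb3 UMIs. The tested members were in the fit through the classes where they are higher. The call of Erbb3 and the log2 values above thus give no measure of the T cell levels.

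The mouse term carried part of these calls. Without it the endothelial calls were 0, the macrophage calls 3 (Erbb3, Erbb2 and Hbegf) and the fibroblast calls 2 (Egfr and Erbb3). Leaving out mouse 1 left 1 endothelial call (Nrg1) and 3 macrophage calls (Erbb3, Egfr and Erbb2), and leaving out mouse 3 left 3 macrophage calls (Erbb3, Nrg1 and Hbegf). The share of all genes called in these runs is not given here, so these counts are no result about the members. Endothelial Nrg1 did not pass without mouse 2 (adjusted p = 0.421). The macrophage call of Nrg1 was lost without mouse 1 (adjusted p = 0.0824), without mouse 2 (0.0631), in DESeq2 (0.0777), with 4 tumour sums (0.0534) and without the mouse term (0.190).

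**Figure D3:**
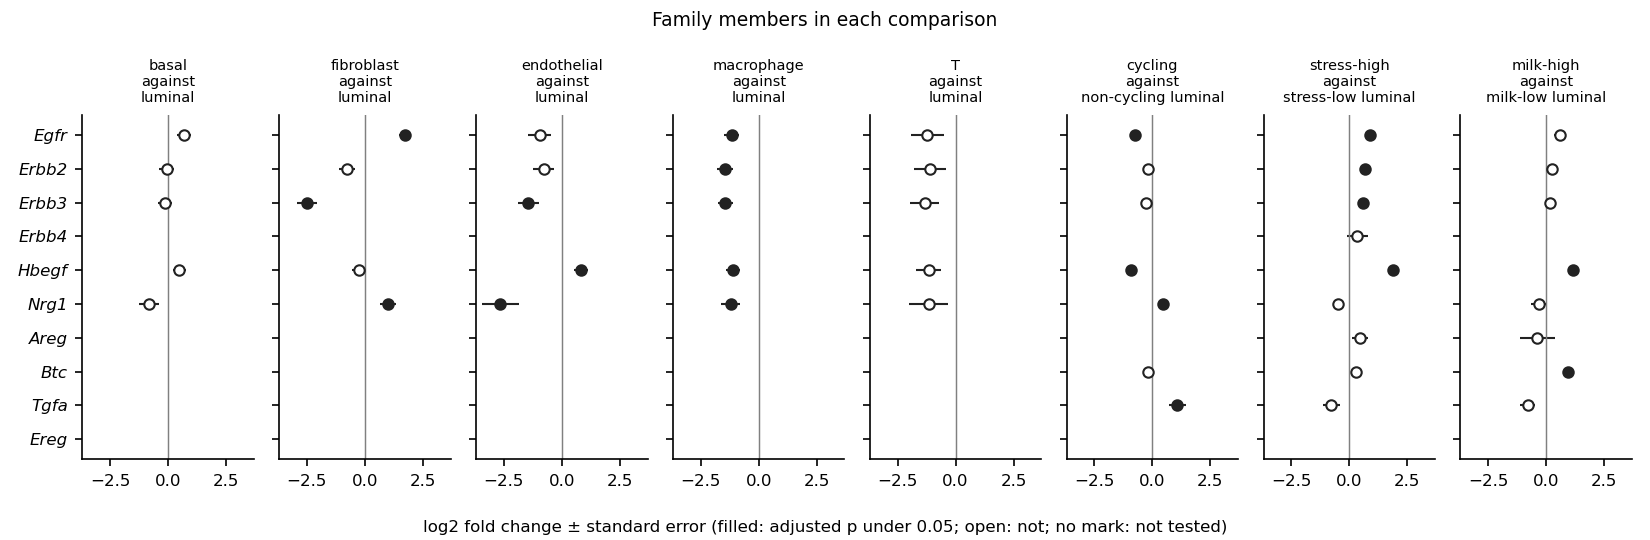
Log2 fold change with its standard error (horizontal axis) of each tested member (rows) in the 8 comparisons (panels), positive where the first-named group is higher. Filled points passed at an adjusted p under 0.05, open points did not, and members without a mark did not reach the count filter. All 5 tested members lie to the left in macrophages, from -1.45 to -1.12 and all filled, and in T cells, from -1.33 to -1.09 and all open. Apart from Hbegf in macrophages, they were in the fit through the classes where they are higher. The T cell points rest on 5 to 17 UMIs and the endothelial Nrg1 point on 4.

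The tested members of macrophages were set against the luminal reference. Egfr, Erbb2 and Nrg1 stood above the reference of the same tumour in 3, 3 and 2 of 4 tumours, and Erbb3 in 2. When macrophages that also passed the luminal gate were left out, the mean over tumours went from 5.51 to 3.10 CPM for Egfr, from 6.81 to 3.01 CPM for Erbb3 and from 5.32 to 2.46 CPM for Nrg1. In endothelial cells the same step took Egfr from 8.93 to 0.500 CPM and Erbb3 from 8.61 to 1.54 CPM. In fibroblasts it left Egfr at 52.8 CPM, against 48.6 CPM with these cells, and Nrg1 at 28.0 against 25.8 CPM. Fibroblast Egfr and Nrg1 and endothelial Hbegf did not go down in this step. Cells below the luminal gate can still hold RNA from luminal cells, and its part in these levels was not tested.

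**Figure D4:**
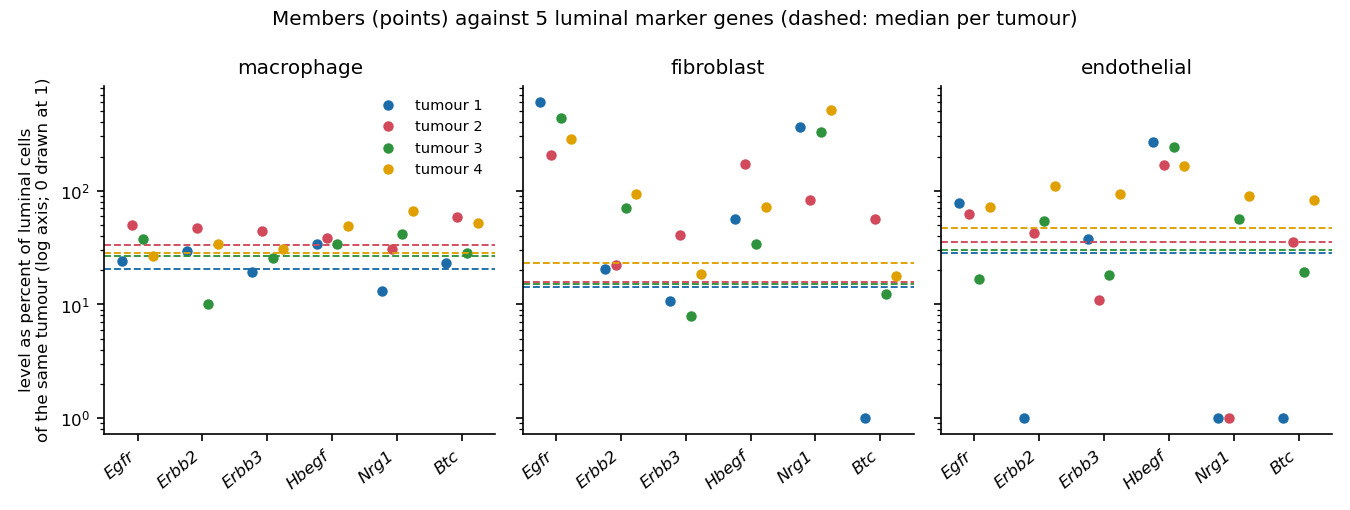
Level of 6 members (points, 1 per tumour) in macrophages, fibroblasts and endothelial cells, as percent of the luminal level of the same tumour on a log axis, with values of 0 drawn at 1. Dashed lines give the median of 5 luminal marker genes per tumour. Egfr in fibroblasts (205 to 605%) and Hbegf in endothelial cells (166 to 270%) lie above the lines, while the macrophage points of Erbb3 and Nrg1 lie on both sides of them.

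The genes that act with the receptors were followed through 5 lists with 52 genes in all, of which 43 could be tested between classes. In fibroblasts 14 of the 43 were higher and 9 lower, where 26.6% of all genes were called higher and 22.4% lower, with a median log2 fold change of 0.20 against -0.01 over all genes. Negative regulators of the pathway were higher in 6 of 13 and lower in 2. Spry1, an inhibitor of receptor tyrosine kinase signalling, was at 2.90 (43.4 ± 12.5 against 6.18 ± 0.590 CPM, SD, n = 3 mice). Spred1, another inhibitor, was at 1.51 and Cbl, the ubiquitin ligase that sends EGFR to degradation, at 1.19. Of 7 genes that respond to ERK, the kinase at the end of this pathway, 5 were lower and none higher. This was not particular to fibroblasts. Of the same 7 genes, 5 were lower and 1 higher in endothelial cells, 4 lower in macrophages, 4 lower in T cells and 1 lower in basal cells. No gene of this list was higher in macrophages, T or basal cells. Those named in fibroblasts were Phlda1 at -1.97 and the cyclin gene Ccnd1 at -1.64, and Pik3r1, the regulatory subunit of PI3-kinase, was at -1.32. All 6 genes changed the same way in 3 of 3 mice, which was a condition for being named.

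In macrophages 10 of the 43 were higher and 13 lower, beside 23.3% and 20.4% of all genes (median -0.03, all genes -0.02). The ligand sheddase gene Adam17 was at 1.84 (35.6 ± 1.38 against 11.8 ± 0.810 CPM), the adaptor gene Grb2 at 1.66 and Cbl at 1.54. Phlda1 was at -1.53, Spry2 at -1.51 and Pik3r1 at -0.99. In endothelial cells 14 were higher and 8 lower, beside 17.9% and 15.1% of all genes (median 0.16, all genes -0.03). Plcg1, the phospholipase that binds active receptors, was at 1.51, the ERK phosphatase gene Dusp6 at 1.30 and the sheddase gene Adam10 at 1.28, while Phlda1 was at -1.35, Fos at -1.24 and Ier3 at -1.15.

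Of the same 43 genes, 1 was lower in basal cells, Phlda1 at -0.68 (adjusted p = 0.00206), and 42 did not pass (median 0.11, all genes -0.01). In T cells 2 were higher and 6 lower, beside 9.68% and 6.92% of all genes (median -0.54, all genes -0.08), among them the phosphatase gene Dusp5 at 1.37, Fos at -1.23 and Pik3r1 at -1.09. None of the 5 further ligands Egf, Epgn, Nrg2, Nrg3 and Nrg4 reached the count filter between classes.

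Within the luminal class, cells were first split by stress genes, because dissociation induces them. The luminal cells with the highest and lowest 25% of the UMI share of 10 immediate early and heat shock genes, in each tumour, were compared. These are ranges of a continuous share, with medians of 0.385 to 0.676% of UMIs in the high and 0.0387 to 0.0863% in the low cells. In the high cells Hbegf and 3 receptor genes were higher. Of the 9 members tested among 13292 genes, 4 were called higher and none lower, where 37.3% of all genes were called, 17.7% higher and 19.6% lower.

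Hbegf had the largest difference of the 9 tested members. It stood at 25.2, 20.6, 13.3 and 25.1 CPM in the stress-low and 91.8, 95.4, 65.1 and 80.8 CPM in the stress-high cells of tumours 1 to 4. The groups did not overlap, and the log2 fold change was 1.89 with a standard error of 0.12 (adjusted p = 3.70e-10, 3 of 3 mice). It passed in every alternative. Egfr stood at 5.65, 17.6, 5.68 and 10.7 CPM against 15.0, 30.6, 14.2 and 21.8 CPM, higher in each tumour although the groups overlapped, because tumour 2 was high in both (0.89, adjusted p = 0.000140). Erbb2 was at 0.67 (adjusted p = 0.00312) and Erbb3 at 0.60 (adjusted p = 0.00183), both higher in 3 of 3 mice.

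Nrg1 did not pass (-0.48, adjusted p = 0.0688). It passed as lower without mouse 3 (-0.81, adjusted p = 0.000324), without the count filter (-0.48, adjusted p = 0.0286) and without the cells with most UMIs (-0.60, adjusted p = 0.0209), and without mouse 2 it was at 0.17 (adjusted p = 0.718). In tumour 2 it was 56.9 CPM in the stress-low and 33.8 CPM in the stress-high cells, and in tumours 3 and 4 the order was the other way. Without the mouse term Hbegf alone passed, in DESeq2 Hbegf and Egfr. Erbb2 did not pass without mouse 3 (0.51, adjusted p = 0.0600) or without the cells with most UMIs (0.45, adjusted p = 0.0576). The pathway lists gave 18 higher and 4 lower of 49 tested, beside 17.7% and 19.6% of all genes (median 0.25, all genes 0.00). Fos at 3.48 and Egr1 at 3.67 were part of the stress score, so their values describe the split, while Ier3 at 1.42 was not, and Ccnd1 at -0.90 and Etv5 at -0.50 were lower.

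The second split was by 8 milk protein genes, which mark the secretory state of the luminal cells. Hbegf and Btc were higher in the milk-high cells. Hbegf stood at 34.2, 33.0, 14.4 and 32.1 CPM in the milk-low and 77.9, 65.7, 56.8 and 68.5 CPM in the milk-high cells, without overlap (log2 fold change 1.17, standard error 0.12, adjusted p = 0.000336, 3 of 3 mice). Btc stood at 4.74, 5.14, 5.17 and 6.02 CPM against 8.88, 8.59, 11.6 and 13.0 CPM, also without overlap (0.92, standard error 0.20, adjusted p = 0.0113). These were 2 of 8 members tested among 13192 genes, where 8.43% of all genes were called higher, and none was called lower (9.63% of all genes, 18.1% in either direction).

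The Btc call was lost in DESeq2 (adjusted p = 0.0828), without mouse 3 (0.155) and without the mouse term (0.0934), with log2 values of 0.91, 0.83 and 0.92. Egfr stood at 5.42, 22.6, 3.6 and 10.4 CPM in the milk-low and 14.9, 21.4, 10.0 and 19.6 CPM in the milk-high cells, higher in tumours 1, 3 and 4. It did not pass (0.58, adjusted p = 0.127), but did without mouse 2 (1.07, adjusted p = 0.000241) and without the count filter (0.56, adjusted p = 0.0268). Areg went opposite ways in the tumours. In tumour 1 it was 23.0 CPM in the milk-low and 2.82 CPM in the milk-high cells, while tumours 2 to 4 had 0.468 to 0.837 CPM and 1.91 to 2.50 CPM. These values rest on 68 and 7 UMIs in tumour 1, and on only 3 to 5 and 8 to 14 UMIs in tumours 2 to 4. In tumour 1, 9 luminal cells held 72 of all 99 luminal Areg UMIs. The log2 value of Areg was -0.38 (adjusted p = 0.758) with all mice and 1.72 (adjusted p = 0.0201) without mouse 1. Of the pathway genes 7 were higher and 2 lower of 48, beside 8.43% and 9.63% of all genes (median 0.20, all genes 0.01), with Egr1 at 0.93, Ier3 at 0.86, Pik3r1 at 0.84 and Ccnd1 at -0.76.

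The third split set cycling luminal cells, with at least 2 UMIs of Mki67 and Top2a, against those with 0. Hbegf and Egfr were lower and Tgfa higher in cycling cells. Hbegf stood at 56.3, 57.3, 38.2 and 50.5 CPM in the non-cycling and 17.1, 31.6, 21.6 and 30.1 CPM in the cycling cells, without overlap (-0.94, standard error 0.14, adjusted p = 7.76e-08, 3 of 3 mice), and it passed in every alternative. Egfr stood at 10.7, 26.3, 10.2 and 15.1 CPM against 6.40, 18.3, 2.64 and 10.7 CPM, lower in each tumour (-0.73, adjusted p = 0.00171), but did not pass without the mouse term (adjusted p = 0.538) or without the 8% of cells with most UMIs (-0.63, adjusted p = 0.0789).

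Tgfa, an EGFR ligand, stood at 0.918, 2.48, 1.73 and 2.02 CPM in non-cycling and 2.13, 6.0, 4.22 and 2.15 CPM in cycling cells (1.08, standard error 0.36, adjusted p = 0.0147, 3 of 3 mice). Cycling cells held 1, 22, 8 and 3 Tgfa UMIs in the 4 tumours, and the call was lost without mouse 2 (0.81, adjusted p = 0.300), without mouse 3 (1.18, adjusted p = 0.0544) and without the mouse term (adjusted p = 0.172). Nrg1 passed at 0.47 (adjusted p = 0.0442), higher in 2 of 3 mice, from 44.9 to 79.1 CPM in tumour 2, and turned to -0.94 (adjusted p = 0.110) without mouse 2. The Nrg1 call was also lost with size factors (adjusted p = 0.0547), in DESeq2 (0.890), without the count filter (0.216), without the mouse term (0.764) and with 4 tumour sums (0.473). Thus 2 members were called higher and 2 lower of 7 tested among 12938 genes, where 32.4% of all genes were called, 16.3% higher and 16.1% lower. Cycling cells had median depths of 4913 to 6922 UMIs, against 2545 to 3466 in the others, and the part of depth in these differences was not tested. Of 48 pathway genes 5 were higher and 10 lower, beside 16.3% and 16.1% of all genes (median -0.13, all genes -0.03), with Akt1 and Ccnd1 at 0.76, Etv5 at 0.58, Pik3r1 at -1.29, Ier3 at -1.20 and Egr1 at -0.88.

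**Figure D5:**
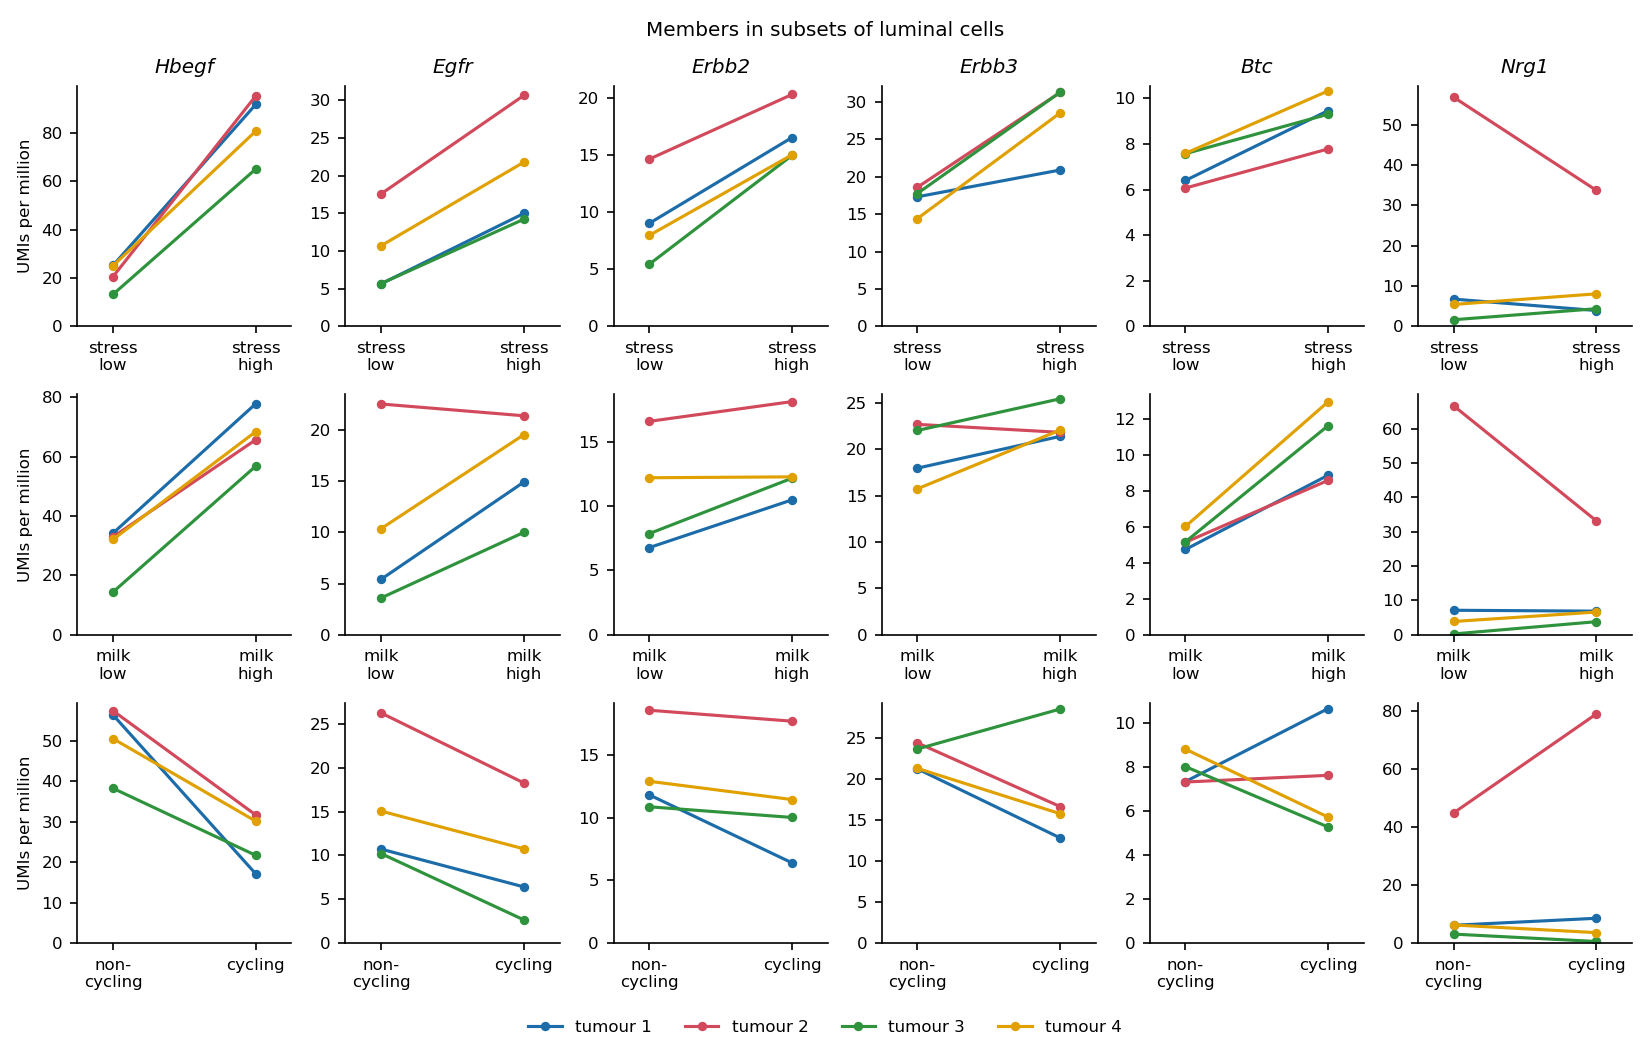
Level of 6 members (vertical axes, CPM) in the low and high subset of luminal cells, joined by a line for each tumour, for the stress, milk and cycling splits. Hbegf goes up in all 4 tumours with stress and milk genes and down in cycling cells, and Nrg1 is high in tumour 2 in every subset.

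Tumours 3 and 4 came from different glands of 1 mouse, so their luminal cells were set side by side, with no replicate check. Nrg1 differed most, at 2.62 CPM in the thoracic and 5.89 CPM in the inguinal tumour, a ratio of 0.444 (exact conditional binomial 95% interval 0.307 to 0.633). It was the only member past 2-fold, where 7.18% of 17767 genes were. Egfr had a ratio of 0.598 (0.488 to 0.730) and Hbegf of 0.722 (0.651 to 0.800), while Erbb3 had 1.18 (1.03 to 1.36). The intervals of Erbb2, Erbb4, Areg, Tgfa and Btc included 1, and they cover counting error only.

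The genes most like each tested member over the 24 class and tumour sums were found among 4951 genes with a mean of at least 20 CPM. For Egfr they were Nradd, Cnpy2 and Wipi1 (Pearson's r of log2 levels 0.88, 0.87 and 0.85), for Erbb2 Fasn, Tmem11 and Clpb (0.86, 0.83 and 0.82) and for Erbb3 Slc41a1, Csad and Dars (0.79, 0.79 and 0.76). For Hbegf they were Stt3b, Rabggtb and Trmt1 (0.86, 0.85 and 0.84) and for Nrg1 Sdc2, Ift27 and Ccn5 (0.78, 0.77 and 0.77). The sums share libraries, and low counts in small classes add noise that genes can share, so these values only describe the likeness.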

How the data were processed

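RNA of single cells was measured in 4 tumour samples of 3 mice. What the authors deposited are UMI counts for every gene in every barcode, without normalization. FastQC and Cell Ranger 2.2.0 with mm10 (GRCm38) are named per the submitters' processing notes, with the strand setting not given in the sources used here. The gene names and barcodes in the deposited files are labels. Positions are from GENCODE M21 (GRCm38).

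Of 36162 barcodes, 24 had fewer than 300 genes and were removed, and a mitochondrial share of 15% or more removed 0. The lowest total in a library was 836 to 1601 UMIs, so barcodes with fewer UMIs were not analysed here. Median depth was 1922.5 to 3281 UMIs per barcode, and a gene at 10 CPM is rarely seen in a single cell. Gates were Krt8 and Krt18 with at least 3 UMIs (luminal), Krt5 and Krt14 with 3 (basal), Col1a1 and Col3a1 with 10 (fibroblast), Cdh5 and Pecam1 with 2 (endothelial), C1qa and C1qb with 5 (macrophage) and Cd3g and Trbc2 with 2 (T), with non-luminal gates first. No doublet caller was run, so doublets remain. Leaving out the 8% of cells with most UMIs, or non-luminal cells that also passed the luminal gate, were alternatives.

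The replicate was the mouse. UMIs of a class were added up within each mouse (tumours 3 and 4 in 1 sum, at least 20 cells a sum) and fitted with edgeR 4.0.16 by its quasi-likelihood test, after TMM scaling and filterByExpr. Mouse was a block in the fit, since the sums come from the same animals. Of 15 sums of other classes, 15 correlated best with the luminal sum of their own mouse (r = 0.22 to 0.58, after removal of the class means). Adjustment (Benjamini-Hochberg) was over all genes of a fit, with calls at 0.05. Fold changes are from this fit, CPM are summed UMIs per 1000000, and intervals are exact at 95% for counting error only. DESeq2 1.42.0, size factors, no count filter, no mouse term, each mouse left out, 4 tumour sums and other gates were alternatives. The procedure was tested on simulated data, where 93.7% of 4-fold and 17.0% of 2-fold changes were recovered among 9392 genes between basal and luminal cells. Between macrophages and luminal cells the shares were 99.0% and 37.0%. Apart from the changes put in, all simulated sums had the same mean profile, with the same spread for every gene and no mouse effect. Recovery in the real data can thus differ.

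Pathway genes named are the 3 highest and 3 lowest per comparison among those that passed, changed the same way in every mouse and reached 20 CPM in the higher arm. For likeness, log2(CPM + 1) was used and 3 genes a member are named. Members and lists were chosen with earlier results of these data known. Reporter reads were not analysed here, and 1 gene that the rule names and 1 marker list are not reported here.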

Additional observations from a re-analysis of the deposited data

Results flagged for a closer look

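Within each class, a tumour was marked where its level stood far from those of the other 3 by Dixon's ratio at 95%. Of 60 gene and class groups, 26 had at least 20 UMIs and were tested, and 5 were marked, where chance marks about 1 in 20 of groups with 4 independent samples. Tumours 3 and 4 came from 1 mouse and are not independent. Nrg1 in luminal cells of tumour 2 was 50.0 CPM (1692 UMIs), against 2.62 to 6.24 CPM in the other tumours. Nrg1 in basal cells of tumour 2 was 19.5 CPM (17 UMIs), against 3.53 to 5.22 CPM, in a class where 89.1% of cells also passed the luminal gate. Areg in luminal cells of tumour 1 was 8.96 CPM (99 UMIs), against 0.917 to 1.37 CPM. Egfr in macrophages of tumour 2 was 12.3 CPM (20 UMIs), against 2.47 to 3.93 CPM, and luminal Egfr was also highest in that tumour, at 24.9 CPM. Hbegf in endothelial cells of tumour 1 was 143 CPM, against 81.2 to 88.9 CPM, and rests on 18 UMIs with an exact Poisson interval of 84.7 to 226 CPM.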

How the results depend on the processing

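Of 49 fold changes of tested members 21 were called, and 6 kept their call and direction in every alternative run: Egfr and Erbb3 in fibroblasts, Erbb3 in macrophages, and Hbegf in all 3 luminal splits. Nrg1 in cycling cells was the only called one to change direction. The Erbb3 calls rest on 17 fibroblast and 52 macrophage UMIs. Without the count filter 8 members were called in fibroblasts (3 higher, 5 lower; 7179 of 30854 genes called), 5 in endothelial cells (1 higher, 4 lower; 4150 genes), 8 in macrophages (all lower; 6050 genes), 2 in T cells (lower; 2050 genes) and 1 in basal cells (Areg, higher; 1171 genes). Without the replicate block (the mouse term) there were 0 calls in endothelial cells, 3 in macrophages and 1 in each of the cycling, stress and milk splits, and fibroblasts kept 2 of 3. DESeq2 called 2 in the cycling split (2319 genes called), where 1 adjusted p was not given, 2 in the stress split (2532 genes) and 1 in the milk split (1369 genes). With non-luminal cells that passed the luminal gate left out, 1 member was called in basal cells (Egfr), 5 in endothelial and 1 in T cells, and the basal sum of mouse 2 dropped out for lack of cells. Where no count of all genes called is given, the number of members called is not a result about the family. Without the cells with most UMIs 1 was called in basal cells (Egfr). With each mouse left out in turn, calls ranged from 0 to 1 in basal cells, 3 to 4 in fibroblasts, 1 to 2 in endothelial cells, 3 to 4 in macrophages, 0 to 1 in T cells, 2 to 4 in the cycling split and 1 to 3 in the milk split, and were 4 each time in the stress split. The members were not always the same: in fibroblasts Nrg1 was lost without mouse 1 and without mouse 3, while Btc was called without mouse 1, Hbegf without mouse 2 and Erbb2 without mouse 3, and in the stress split Erbb2 was lost and Nrg1 called without mouse 3.

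Directions that turned, other than that of Nrg1 in the cycling split, concerned values that had not passed. In basal cells Erbb2 was at 0.20 in DESeq2 and 0.045 without the replicate block, and Hbegf at -0.28 under the stricter gates. With each mouse left out in turn, Erbb2 in basal cells ranged from -0.22 to 0.31, Erbb3 in basal cells from -0.47 to 0.058 and Hbegf in fibroblasts from -1.07 to 0.22. In the cycling split Nrg1 ranged from -0.94 to 0.72 and Btc from -0.46 to 0.058. Nrg1 ranged from -0.81 to 0.17 in the stress split and from -0.77 to 0.63 in the milk split, and Areg from -1.25 to 1.72 in the milk split, with 0.41 in DESeq2. The causes were not tested. The median fold change of all genes in fibroblasts was -0.01 with TMM, 0.088 with size factors and 0.094 in DESeq2. Depth limits Erbb4, Ereg, Tgfa and all values in T cells.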

Other observations

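Areg was concentrated in few cells, which were chosen here after their values were seen and so carry no test. Of the 36138 cells 16 held 3 or more Areg UMIs, and these held 103 of the 244 Areg UMIs (42.2%). Of them 11 came from tumour 1 and 3 from tumour 2. By class, 11 were luminal, 2 basal and 1 a macrophage, and 2 were in no class. In the luminal class of tumour 1, 9 such cells held 72 of 99 UMIs. Over the 16 cells, the summed level of Krt19, a ductal keratin gene, was 2131 CPM, against 163 CPM in the other luminal cells. Cited1, a gene known from hormone-sensing cells, was at 315 against 2.33 CPM, with UMIs in 6 of the 16 cells, and Prlr, the prolactin receptor gene, at 330 against 61.7 CPM, in 10 cells. The hormone receptor genes Esr1 and Pgr and the gene Foxa1 had only 1, 3 and 1 UMIs, in 1, 2 and 1 of the 16 cells. Their levels were 15.0, 45.0 and 15.0 CPM, against 2.13, 0.732 and 0.890 CPM. Wfdc2 was at 645 against 22.9 CPM and Gpx3 at 1366 against 7.73 CPM, each in 11 cells. The casein gene Csn3 was at 1081 against 5941 CPM, and Elf5, the alveolar transcription factor gene, had no UMI, against 78.3 CPM.

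The 5 ErbB ligands outside the members were also counted. Egf gave 335 UMIs over all cells, 250 of them luminal, Nrg2 gave 173 (137 luminal), Nrg4 84 (55 luminal), Epgn 46 (34 luminal) and Nrg3 2 (1 luminal). Egf stood at 5.43, 2.69, 3.33 and 2.11 CPM in the luminal cells of tumours 1 to 4.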
